A study of Mus musculus with 8 samples.

Results

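Chemokine receptors are the surface proteins through which leukocytes sense chemokines and move towards them, and 9 of them are described here in the colon of mice with acute graft-versus-host disease. The receptors are Ccr1, Ccr3, Ccr7, Cxcr2, Cxcr3, Cxcr4, Cxcr5, Cxcr6 and Cx3cr1. They were taken by gene symbol from an annotated table of 19505 genes, each had 1 probe set, and all 9 were measured. In this disease donor T cells in the graft attack organs of the recipient, the gut among them. All 8 recipients were wild-type BALB/c mice that had received lethal irradiation and, on day 0, a transplant of bone marrow and T cells from C57BL/6 donors. Until day 7, when whole colon was collected, 4 of them were given PBS by mouth and 4 were given hBD-2 at 1.2 mg/kg. hBD-2, human beta-defensin 2, is an antimicrobial peptide of epithelial surfaces. Age and sex are not in the labels, which also do not say whether mice shared a cage or litter. Every group carried the disease, so the comparison is between 2 treatments of diseased colon, without a healthy reference, and leukocytes of the donor and surviving leukocytes of the recipient cannot be separated in whole tissue.

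The 9 receptors belong to the class of receptors that cross the membrane several times and signal through inhibitory G proteins. Binding of a chemokine activates the phosphoinositide kinase Pik3cg and, through the exchange factor Dock2, the small GTPase Rac2, which rearranges actin at the leading edge of the cell. Some receptors mark myeloid cells and granulocytes, some mark effector T cells, and some guide cells to lymphoid tissue or hold them in bone marrow. In graft-versus-host disease such receptors are known for directing donor T cells and myeloid cells into gut, liver and skin.

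Ccr1, Ccr3 and Cxcr6 lie in one cluster of receptor genes on chromosome 9, and they were the 3 receptors with an unadjusted p under 0.05 in the comparison below. Their promoters are shown because the differences of these 3 had opposite signs, although whether the Ccr3 values stand above background cannot be read. RefSeq (GRCm38.p6) gave a window for 7 of the 9 receptors. The lines give the 250 bases before each start of transcription, 5′ to 3′ on the strand of the gene, at chr9:123968693-123968942 (minus strand) for Ccr1, chr9:124021721-124021970 (plus strand) for Ccr3 and chr9:123806227-123806476 (plus strand) for Cxcr6. Capitals mark matches, on either strand, to GAGGAA, a core of sites for the myeloid factor PU.1, to TGTGGT, a core of Runx sites, and to TGACTCA, a site of AP-1; the 3 motifs do not overlap in these windows.
Ccr1 promoter: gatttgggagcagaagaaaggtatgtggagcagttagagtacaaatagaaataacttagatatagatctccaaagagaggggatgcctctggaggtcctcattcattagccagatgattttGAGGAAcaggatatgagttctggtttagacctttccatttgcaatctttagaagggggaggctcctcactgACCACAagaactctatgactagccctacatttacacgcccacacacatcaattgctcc
Ccr3 promoter: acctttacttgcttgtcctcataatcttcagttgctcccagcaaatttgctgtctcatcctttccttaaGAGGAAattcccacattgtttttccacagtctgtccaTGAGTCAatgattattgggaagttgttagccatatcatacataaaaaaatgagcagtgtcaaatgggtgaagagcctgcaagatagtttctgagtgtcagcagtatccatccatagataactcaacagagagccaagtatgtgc
Cxcr6 promoter: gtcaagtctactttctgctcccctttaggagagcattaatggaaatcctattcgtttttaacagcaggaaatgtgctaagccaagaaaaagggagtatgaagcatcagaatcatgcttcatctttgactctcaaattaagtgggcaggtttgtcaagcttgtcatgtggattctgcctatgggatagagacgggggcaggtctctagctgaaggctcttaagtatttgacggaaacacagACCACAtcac
The Ccr1 window held the PU.1 core 129 bases before the start and the Runx core on the opposite strand 58 bases before it. In Ccr3 the PU.1 core lay 181 bases before the start and the AP-1 site, on the opposite strand, 144 bases before it. The Cxcr6 window held only the Runx core, on the opposite strand and 10 bases before the start. Among the other receptors with a window, Cxcr3 held the PU.1 and Runx cores, Cx3cr1 the Runx core, Cxcr2 the PU.1 core and Cxcr4 none. Among 32851 windows of this length, 23.25% held the PU.1 core, 14.05% the Runx core and 4.463% the AP-1 site, so these matches describe the letters and nothing more.

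Values are log2 units as deposited, in which 1 unit is a doubling, and a difference is always hBD-2 minus PBS. The array medians lay between 6.77 and 6.82. Among the arrays, hBD-2 1 and hBD-2 3 formed a pair of their own, at 25.2 and 25.4 on the first principal component (34.6% of the variance) against -14.9 to -2.45. Both also held more of the posterior homeobox gene Hoxb13, 9.06 and 9.32 against 4.73 to 7.22, and they are called the outlying pair below; differences and medians that moved by over 1.5 times or turned sign without it are given both ways. The mean of 7 genes of posterior colon ranged from 5.63 to 5.89 with PBS and from 5.70 to 7.25 with hBD-2 (median difference 0.72, and -0.0849 without the pair). Hoxb13 itself differed by 1.22 with the pair and by -0.79 without it, and Hoxa13 by -0.07 and -0.28. Epithelial markers bore out the labelled tissue in every mouse: the mean of 10 markers ranged from 11.6 to 11.7 with PBS and from 11.6 to 11.8 with hBD-2 (median difference 0.04, and 0.09 without the pair). The 10 markers differed by -0.30 to 0.33. At an unadjusted p under 0.05 in limma, 2 were higher and 0 lower, against 5.85% and 5.98% of all genes. The groups did not overlap for 3 with hBD-2 higher and 0 with hBD-2 lower, against 2.80% and 3.60% of all genes. The epithelial adhesion molecules Epcam and Cdh1 differed by 0.04 and 0.04, and by 0.07 and 0.0084 without the pair.

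Ccr1 stood out among the 9 receptors: its groups did not overlap, with hBD-2 lower by 1.58-fold on average. Cxcr6 lay lower by 1.50-fold on average, with a wide spread between the hBD-2 mice, and Ccr3 lay higher by 1.17-fold. The 6 other receptors differed by -0.10 to 0.13. With limma and Benjamini-Hochberg adjustment over all 19505 genes, 0 of the 9 receptors passed an adjusted p of 0.05, a threshold that 8 genes (0.0410%) passed in either direction. At an unadjusted p under 0.05, 2 receptors were lower, against 5.98% of all genes, and 1 was higher, against 5.85%. The groups did not overlap for 1 receptor with hBD-2 lower, against 3.60% of all genes, and for 0 with hBD-2 higher, against 2.80%. The median difference of the 9 receptors was 0.0094, beside 0.0122 for all genes, and -0.0806 without the outlying pair.

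**Figure D1:**
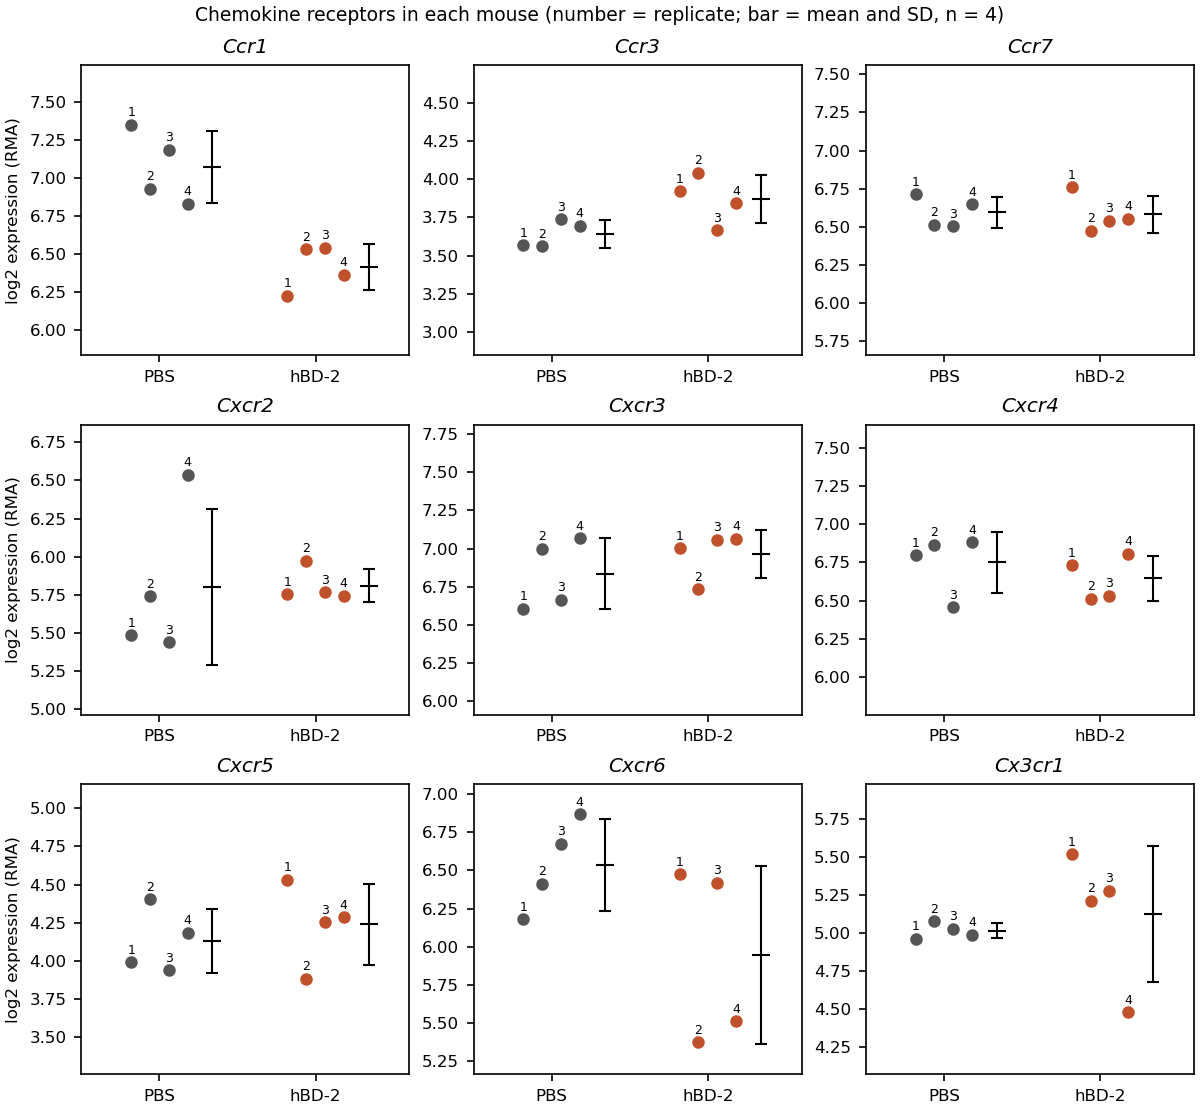
Log2 expression of each receptor in each mouse (points, numbered by replicate; PBS grey, hBD-2 orange), with the mean and SD of the 4 mice of a group beside them; every panel spans the same number of log2 units. Ccr1 is the one panel in which the groups do not overlap, Cxcr6 splits the hBD-2 mice into 2 near the PBS mice and 2 well below them, and PBS 4 lies far above the other mice for Cxcr2.

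Among the receptors of myeloid cells and granulocytes, Ccr1 binds Ccl3 and related chemokines and is carried by monocytes, macrophages and neutrophils. It measured 7.35, 6.93, 7.18 and 6.83 in PBS mice 1 to 4 and 6.23, 6.53, 6.54 and 6.37 in hBD-2 mice 1 to 4. The lowest PBS mouse lay above the highest hBD-2 mouse. The means were 7.07 ± 0.24 (SD, n = 4) and 6.42 ± 0.15 (SD, n = 4). The difference was -0.66 ± 0.12 (SE), with a 95% interval from -0.93 to -0.38, an unadjusted p of 3.26e-04 and an adjusted p of 0.0931 in limma. Without the outlying pair it was -0.62. When limma's prior was fitted with an intensity trend and robustly, the adjusted p was 0.0407, a setting in which 0.436% of all genes passed with hBD-2 lower; over all alternatives tried it ranged from 0.0407 to 0.258. In whole tissue, fewer cells that carry a receptor and less of its RNA in each cell cannot be told apart.

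Ccr3, the eotaxin receptor of eosinophils, measured 3.57, 3.56, 3.74 and 3.69 in the PBS mice and 3.92, 4.04, 3.67 and 3.84 in the hBD-2 mice. hBD-2 3 lay below PBS 3 and PBS 4, and the other hBD-2 mice lay above all PBS mice. The difference was 0.23 ± 0.09 (SE), with a 95% interval from 0.02 to 0.43 and an adjusted p of 0.370 in limma, and 0.30 without the outlying pair. All Ccr3 values lay well below the array medians of 6.77 to 6.82, and the receptor was dropped when the genes of lowest value were left out. Whether these values stand above background cannot be read, which limits the reading of the difference. The mean of 5 eosinophil markers also lay below the array medians. That mean ranged from 4.64 to 4.75 with PBS and from 4.74 to 4.91 with hBD-2. The median difference of the markers was 0.09, with 0 of 5 adjusted. At an unadjusted p under 0.05, 1 was higher, against 5.85% of all genes. Prg2, a granule protein of eosinophils, differed by 0.23 and Epx, their peroxidase, by 0.29 (0.50 without the outlying pair). The part of eosinophils in the Ccr3 difference was not tested.

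Cxcr2, the receptor through which neutrophils follow Cxcl1 and Cxcl2, measured 5.48, 5.74, 5.44 and 6.54 in the PBS mice and 5.75, 5.97, 5.77 and 5.74 in the hBD-2 mice. PBS 4 lay above all other mice and widened the PBS spread to an SD of 0.51, against 0.11 with hBD-2. The difference was 0.01 (95% interval -0.46 to 0.47), 0.26 without PBS 4 and 0.06 without the outlying pair. The mean of 11 neutrophil markers was highest in PBS 4 too, at 6.28, against 5.63 to 6.15 in the other PBS mice and 5.59 to 5.97 with hBD-2. Their median difference was -0.42, with 0 of 11 adjusted. At an unadjusted p under 0.05, 4 were lower and 2 higher, against 5.98% and 5.85% of all genes. With the outlying pair left out the median was -0.149, and the granulocyte growth factor receptor Csf3r went from -0.26 to -0.0253 and Retnlg from -0.57 to -0.29.

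Cx3cr1, the fractalkine receptor of monocytes and of resident macrophages of the gut, measured 4.96, 5.08, 5.03 and 4.99 in the PBS mice and 5.51, 5.21, 5.28 and 4.48 in the hBD-2 mice. The PBS mice lay close together (SD 0.05), 3 hBD-2 mice lay above them all and hBD-2 4 lay below them all (SD 0.45). The difference was 0.11 (95% interval -0.30 to 0.51) with an adjusted p of 0.851 in limma. It was 0.32 with hBD-2 4 left out and -0.17 without the outlying pair, so its direction rested on single mice.

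Among the receptors of effector T cells, Cxcr6 binds Cxcl16 and marks effector and tissue-resident T cells and some innate lymphocytes. It measured 6.18, 6.41, 6.68 and 6.87 in the PBS mice and 6.48, 5.37, 6.42 and 5.51 in the hBD-2 mice. hBD-2 1 and hBD-2 3 lay within the PBS range, and hBD-2 2 and hBD-2 4 lay below every PBS mouse. The means were 6.54 ± 0.30 (SD, n = 4) and 5.95 ± 0.58 (SD, n = 4). The difference was -0.59 ± 0.26 (SE), with a 95% interval from -1.17 to -0.01, an unadjusted p of 0.0463 and an adjusted p of 0.413 in limma. Without the outlying pair it was -1.09 with an adjusted p of 0.124, and with hBD-2 2 alone left out it was -0.40.

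Cxcr3, the receptor of the interferon-induced chemokines Cxcl9, Cxcl10 and Cxcl11 on type 1 T cells and natural killer cells, measured 6.61, 7.00, 6.66 and 7.07 in the PBS mice and 7.00, 6.73, 7.06 and 7.07 in the hBD-2 mice. The hBD-2 values lay within the range of the PBS values, and the lowest hBD-2 mouse, hBD-2 2, was also the lowest for Cxcr6. The difference was 0.13 (95% interval -0.14 to 0.41) with an adjusted p of 0.709 in limma, and 0.07 without the outlying pair. The mean of 9 genes of type 1 and cytotoxic lymphocytes ranged from 6.37 to 6.67 with PBS and from 6.16 to 6.50 with hBD-2. Their median difference was -0.13, with 0 of 9 adjusted. At an unadjusted p under 0.05, 1 was lower, against 5.98% of all genes. Of the 9 genes, Tbx21, the master factor of type 1 T cells, differed by -0.26 without overlap of the groups, and Ifng by -0.05. Leaving out the outlying pair gave -0.25 for the median of the list and -0.25 for Ifng.

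The 3 receptors of homing and lymphoid tissue overlapped between the groups. Ccr7, which brings naive T cells and mature dendritic cells to lymph nodes, measured 6.71, 6.51, 6.50 and 6.65 in the PBS mice and 6.76, 6.48, 6.54 and 6.55 in the hBD-2 mice. Its difference was -0.01 (95% interval -0.20 to 0.18), the narrowest interval of the 9, and -0.08 without the outlying pair. Cxcr4, the Cxcl12 receptor that retains cells in bone marrow and is widely carried by leukocytes, measured 6.80, 6.87, 6.45 and 6.88 in the PBS mice and 6.73, 6.51, 6.53 and 6.81 in the hBD-2 mice. Here too the hBD-2 values lay within the PBS range, with a difference of -0.10 (95% interval -0.35 to 0.15). Cxcr5, which leads B cells and follicular helper T cells to follicles, measured 3.99, 4.41, 3.94 and 4.19 in the PBS mice and 4.53, 3.88, 4.25 and 4.28 in the hBD-2 mice. Its highest and lowest values both came from hBD-2 mice, and the difference of 0.11 (95% interval -0.21 to 0.43) was -0.05 without the outlying pair. All Cxcr5 values lay well below the array medians, and whether they stand above background cannot be read.

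**Figure D2:**
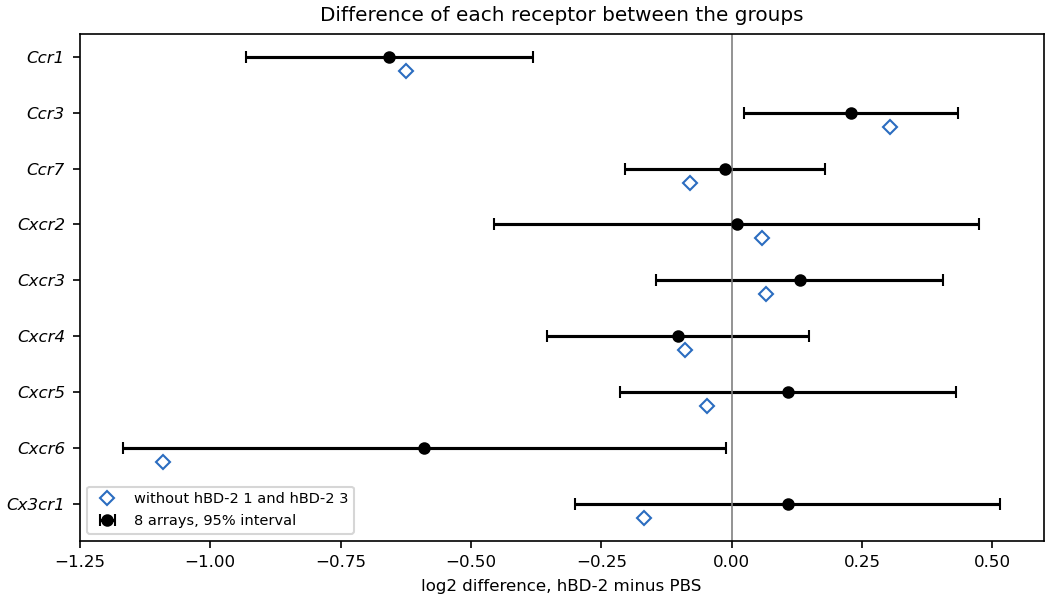
Log2 difference of each receptor, hBD-2 minus PBS, over the 8 arrays (black points with 95% intervals from limma) and without hBD-2 1 and hBD-2 3 (open blue diamonds). The interval of Ccr1 lies wholly below 0 (-0.93 to -0.38) and its diamond stays near the point, whereas Cxcr6 moves from -0.59 to -1.09 and Cxcr5 and Cx3cr1 cross 0.

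The ligands of these receptors lay mostly lower with hBD-2. All 25 listed ligands were measured, and Ccl21b and Ccl21c carried identical values, so they were counted once, which left 24 measurements. None passed the adjusted threshold in limma. At an unadjusted p under 0.05, 11 were lower and 1 was higher, against 5.98% and 5.85% of all genes. A difference below 0 was found for 22, against 9077 of all 19505 genes. The median was -0.27, beside 0.0122 for all genes. Without the outlying pair 23 lay below 0 and the median was -0.29. Of the ligands of Ccr1, all 6 had a difference below 0, with a median of -0.34. An unadjusted p under 0.05 was found for 5, against 5.98% of all genes with hBD-2 lower. The groups did not overlap for 4, against 3.60% of all genes with hBD-2 lower. Several of these chemokines bind more than 1 receptor, so the lists share members.

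Ccl3, the main Ccr1 ligand made by activated macrophages and T cells, measured 8.56, 8.58, 8.90 and 8.62 in the PBS mice and 8.06, 7.38, 7.52 and 7.95 in the hBD-2 mice. As for its receptor, every hBD-2 mouse lay below every PBS mouse. The difference was -0.94 ± 0.15 (SE) with an adjusted p of 0.0690 in limma, and -1.001 without the outlying pair. Over the alternatives its adjusted p ranged from 0.0160 to 0.252. Among the other Ccr1 ligands, Ccl5 differed by -0.30, Ccl7 by -0.24 and Ccl9, named after its values were seen, by -0.52, the last 2 without overlap of the groups. Without the outlying pair Ccl9 was at -0.295 and Ccl5 at -0.46.

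For Ccr3, the eotaxin Ccl11 differed by -0.54 (adjusted p = 0.384 in limma) and Ccl28, a mucosal chemokine of epithelium named after its values were seen, by 0.62 (adjusted p = 0.304). Without the outlying pair the difference of Ccl11 was -0.12. Receptor and principal ligand thus had differences of opposite sign, although whether the Ccr3 values stand above background cannot be read. The 5 Ccr3 ligands had a median of -0.30 and the 5 Cxcr2 ligands one of -0.31, with Cxcl1 at -0.31 and Cxcl2 at -0.25. Without the outlying pair the median of the Cxcr2 ligands was -0.08, with Cxcl1 at -0.08 and Cxcl2 at -0.0217.

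The 3 ligands of Cxcr3, induced by interferon, were near 0 as was their receptor, with Cxcl9 at -0.03, Cxcl10 at -0.14 and a median of -0.03. Without the outlying pair that median was -0.28, with Cxcl9 at -0.28 and Cxcl10 at -0.51. Cxcl16, the ligand of Cxcr6, differed by -0.23 (adjusted p = 0.371 in limma). Cxcl12, the stromal ligand of Cxcr4, measured 9.77, 10.04, 9.61 and 9.66 in the PBS mice and 9.35, 9.60, 9.26 and 9.28 in the hBD-2 mice. The groups did not overlap, by a margin of 0.01 between PBS 3 and hBD-2 2, and the difference was -0.40 ± 0.11 (SE) with an adjusted p of 0.226 in limma. Cxcl13, the follicular ligand of Cxcr5, differed by -0.33, Cx3cl1 by -0.12 (-0.0561 without the outlying pair), and the Ccr7 ligands Ccl19 and Ccl21a by -0.07 and -0.18. Over the 3 measurements of Ccr7 ligands, with Ccl21b and Ccl21c counted once, the median was -0.18, and -0.50 without the outlying pair, both the values of Ccl21a.

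**Figure D3:**
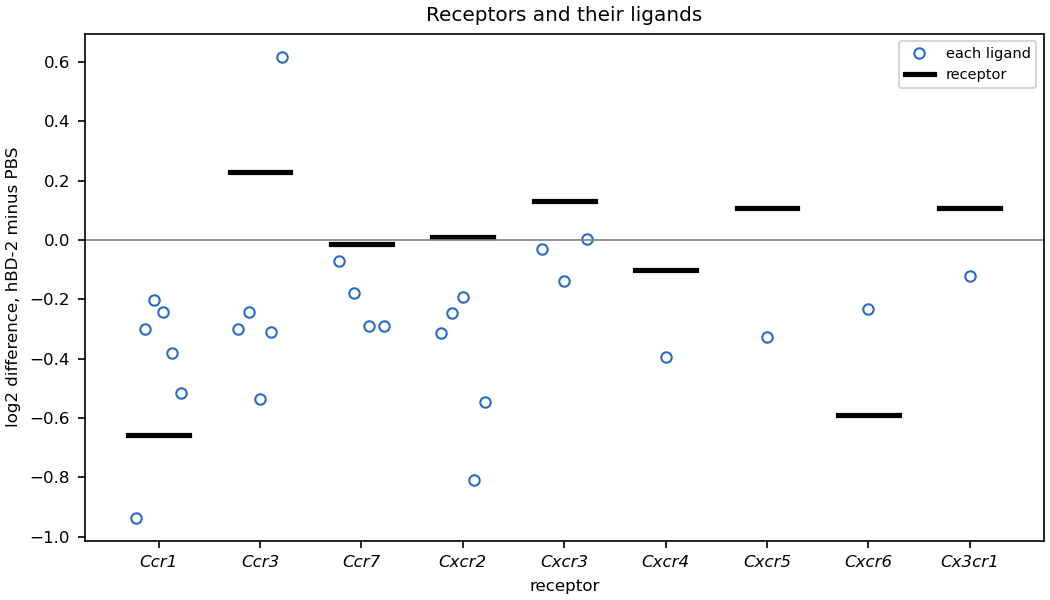
Log2 difference, hBD-2 minus PBS, of each receptor (black bar) and of each of its listed ligands (open circles); a ligand of several receptors appears under each, and the identical Ccl21b and Ccl21c are drawn as separate circles. The Ccr1 bar at -0.66 and all 6 of its ligands lie below 0, while the Ccr3 bar lies at 0.23, with Ccl28 above it at 0.62 and its other ligands below 0.

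The other chemokine receptors showed no common shift. Of the 13 analysed, 0 passed the adjusted threshold in limma. At an unadjusted p under 0.05, 1 was lower, against 5.98% of all genes. The median difference was 0.0074, or -0.0919 without the outlying pair. Ccr2, the receptor of inflammatory monocytes and of some T cells, measured 6.15, 6.26, 6.61 and 6.59 in the PBS mice and 6.72, 5.68, 6.36 and 5.82 in the hBD-2 mice. hBD-2 2 and hBD-2 4 were again the lowest of the 8 mice. Its difference was -0.26 with all arrays and -0.65 without the outlying pair. Ackr3, the scavenging receptor of Cxcl12, differed by 0.01 (0.21 without the outlying pair), and Ccrl2, a chemerin-binding relative named after its values were seen, by -0.58 without overlap of the groups (adjusted p = 0.143 in limma).

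Along the cluster on chromosome 9 the order of genes in GRCm38.p6 was Ccr9, Fyco1, Cxcr6, Xcr1, Ccr1, Ccr1l1, Ccr3 and Ccr2. The differences had no common sign along the cluster, at 0.0074 for Ccr9, -0.13 for Fyco1, -0.59 for Cxcr6, 0.14 for Xcr1, -0.66 for Ccr1, -0.08 for Ccr1l1, 0.23 for Ccr3 and -0.26 for Ccr2. For Ccr9 and Ccr1l1 the outlying pair, when left out, changed these to -0.0919 and -0.0253. The genes above 0 lay well below the array medians: Ccr9 (means 4.20 with PBS and 4.21 with hBD-2), Xcr1 (3.96 and 4.10) and Ccr3 (3.64 and 3.87). Ccr1l1 (3.58 and 3.51) lay as low. Whether these values stand above background cannot be read, which limits the reading of their signs. Cxcr6, Ccr1 and Ccr2, with group means from 5.95 to 7.07, all had differences below 0. Ccr9, Fyco1, Xcr1 and Ccr1l1 were named for their position, after values of the cluster were seen. Cxcr5 and Cx3cr1 lie elsewhere on chromosome 9, Cxcr2 and Cxcr4 on chromosome 1, Ccr7 on chromosome 11 and Cxcr3 on chromosome X.

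Of 28 listed genes of receptor signalling, 25 were measured and 0 passed the adjusted threshold in limma. At an unadjusted p under 0.05, 5 were lower and 0 higher, against 5.98% and 5.85% of all genes. The differences ranged from -0.73 to 0.17 with a median of -0.07, and 18 of the 25 lay below 0. The groups did not overlap for 2 with hBD-2 lower and 1 with hBD-2 higher, against 3.60% and 2.80% of all genes. Dock2 differed by -0.42, Rac2 by -0.28, Pik3cg by -0.24 and Rgs1, a brake on receptor signalling in lymphocytes, by -0.38. Leaving out the outlying pair gave -0.74 for Dock2, -0.50 for Rac2 and -0.20 for Rgs1. Grk5, a receptor kinase named after its values were seen, differed by -0.35 without overlap of the groups (adjusted p = 0.169 in limma).

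Markers of monocytes and macrophages, cells that carry Ccr1, lay lower with hBD-2. Of them 1 passed the adjusted threshold, against 0.0410% of all genes. Of 12 monocyte and macrophage markers 10 were measured, all with a difference below 0 and a median of -0.50 (-0.32 without the outlying pair). At an unadjusted p under 0.05, 8 were lower, against 5.98% of all genes. The groups did not overlap for 6 with hBD-2 lower, against 3.60% of all genes. The macrophage gene Aif1, whose product binds actin, fell by 0.96 on the log2 scale (adjusted p = 0.0467 in limma). Leaving out any 1 array ended the call, with an adjusted p from 0.0540 to 0.227. So did leaving out the outlying pair (0.124), fitting the replicate block (0.0924) or repeating the quantile normalization (0.0629). Over all alternatives tried, the adjusted p of Aif1 in limma ranged from 0.00504 to 0.227. Csf1r, the growth factor receptor of macrophages, differed by -0.42 and the macrophage surface protein Adgre1 by -0.57 (-0.25 without the outlying pair). The mean of the list ranged from 8.74 to 9.07 with PBS and from 8.31 to 8.50 with hBD-2. Because both Ccr1 and the list separated the groups, no pooled correlation is given, and after subtraction of the group means r between them was -0.013 over the 8 mice. The part of macrophage number in the Ccr1 difference was not tested.

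The other cell types were described by the same counts, with 0 genes past the adjusted threshold in each. Of all genes, 5.98% were lower and 5.85% higher at an unadjusted p under 0.05, and 3.60% were lower without overlap of the groups. Of 8 dendritic cell markers, 2 were lower and 1 was higher at an unadjusted p under 0.05 (median -0.07), with Itgax at -0.73 without overlap and Flt3 at 0.40. For B cells the median over 8 markers was 0.14, with Cd79a at 0.09 and Cd79b at 0.22, 0 lower and 1 higher at an unadjusted p under 0.05. Plasma cell markers (5, median -0.12; Jchain -0.38 and Mzb1 -0.21) and mast cell markers (8, median 0.07; Cpa3 0.04 and Kit -0.18) lay near 0 in the median, with 0 plasma cell markers and 2 mast cell markers, 1 in each direction, at an unadjusted p under 0.05. Leaving out the outlying pair gave medians of 0.0009 for dendritic cells, 0.22 for B cells and 0.12 for mast cells, with Cd79a at 0.24, Cpa3 at -0.0096 and Kit at -0.09. Flt3 (means 3.97 with PBS and 4.36 with hBD-2) and Cd79b (3.81 and 4.03) lay well below the array medians, as did Cpa3 and Mzb1. Itgax lay at 7.62 and 6.89. For the 4 low genes, whether the values stand above background cannot be read, which limits the reading of their differences. Array values have no zero level, so absence of a cell type cannot be read from them.

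Cxcr6 followed the T cell markers from mouse to mouse. The mean of 10 T cell markers was 7.54, 7.75, 7.90 and 7.87 in the PBS mice and 7.72, 7.15, 7.69 and 7.38 in the hBD-2 mice. hBD-2 2 and hBD-2 4 were lowest for both Cxcr6 and the list. Over the 8 mice Pearson's r was 0.969 (two-sided exact permutation p = 2.48e-04, 0.00223 after adjustment over 9 relations of a receptor with a cell type list). Spearman's rho was 0.905 (exact permutation p = 0.00456, adjusted 0.0411). Without hBD-2 2 and hBD-2 4, the mice farthest from the median of the list, r was 0.918; after subtraction of the group means it was 0.952. The list itself had a median difference of -0.22, with 0 of 10 adjusted, and without the outlying pair that median was -0.45. At an unadjusted p under 0.05, 3 were lower and 0 higher, against 5.98% and 5.85% of all genes. The groups did not overlap for 2 with hBD-2 lower, against 3.60% of all genes. Cd3d and Cd3e, parts of the T cell receptor complex, differed by -0.30 and -0.16. Cd3g, Cd4 and Il7r, named after their values were seen, differed by -0.38, -0.61 and -0.63. Cd4 and Il7r were those 2 without overlap, with adjusted p of 0.0782 and 0.0535 in limma. Over the alternatives these ranged from 0.0160 to 0.286 for Cd4 and from 0.00854 to 0.252 for Il7r. With the outlying pair left out, Cd3d was at -0.47, Cd3e at -0.43 and Cd3g at -0.82. The mean of the type 1 and cytotoxic genes was also lowest in hBD-2 2 and hBD-2 4, at 6.16 and 6.32. Cxcr6 was correlated with the T cell list only, so whether its relation is particular to T cells was not tested. Whether the Cxcr6 difference goes beyond the T cell markers was not tested either.

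**Figure D4:**
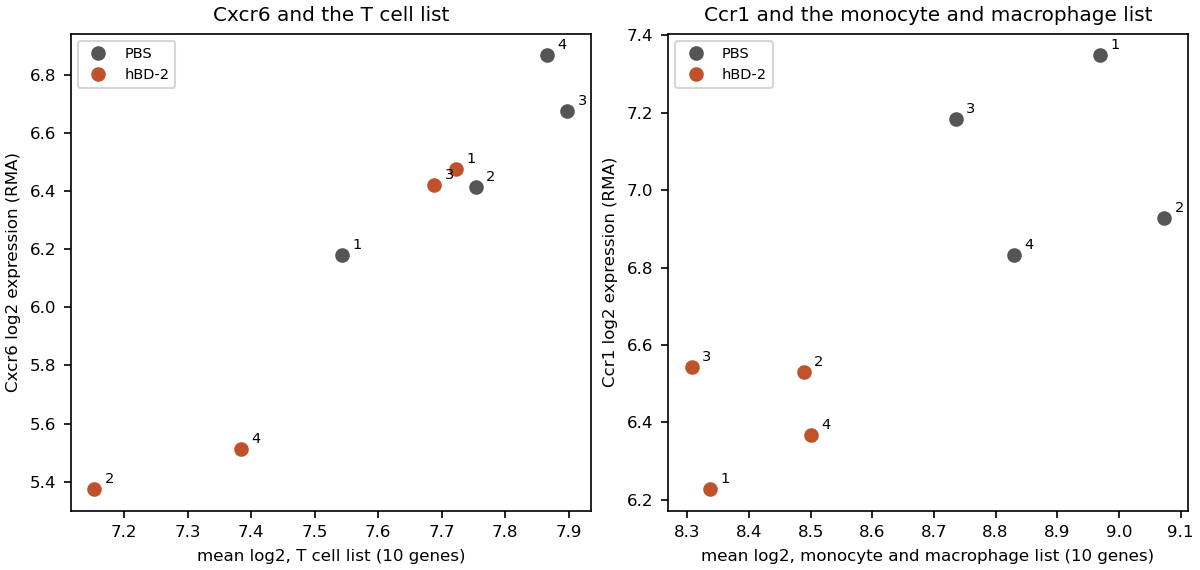
Left, Cxcr6 against the mean of 10 T cell markers, and right, Ccr1 against the mean of 10 monocyte and macrophage markers, in log2 units; each point is a mouse, numbered by replicate, PBS grey and hBD-2 orange. On the left the mice of both groups lie along one line (r = 0.969), with hBD-2 2 and hBD-2 4 at its low end; on the right the groups form separate clouds (r = -0.013 after subtraction of the group means).

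For the 7 receptors other than Ccr1 and Cxcr6, r with the list of a carrier cell type ranged from -0.32 to 0.62, with adjusted exact permutation p between 0.293 and 0.910. No pair of receptors passed adjustment. Of 36 pairs, 23 had r above 0 and 13 below 0. The pair Cxcr3 and Cxcr5 alone had an unadjusted exact permutation p under 0.05 (r = 0.788, p = 0.0305, adjusted over the 36 pairs 0.938; Spearman's rho 0.476).

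The genes whose pattern over the 8 mice was most like that of Cxcr6 were Rac2 (r = 0.991), Cnn2 (r = 0.975) and Ppp3cc (r = 0.967). Rac2 measured 8.21, 8.35, 8.49 and 8.57 in the PBS mice and 8.35, 7.93, 8.34 and 7.89 in the hBD-2 mice. That hBD-2 2 and hBD-2 4 were lowest follows from its choice by likeness to Cxcr6. For Ccr1 they were Sav1 (r = 0.967), Hvcn1 (r = 0.966) and Lipe (r = 0.965), and for Cx3cr1 Gsk3b (r = 0.984), Parp9 (r = 0.973) and Lurap1l (r = 0.968). For Ccr3 they were Olfr1378, Rgs17 and Avp, for Ccr7 Olfr352, Olfr1320 and Csta2, and for Cxcr2 Chrna4, Olfr399 and Cyp11b1, with r between 0.946 and 0.977. For Cxcr3 they were H2-M10.1, Sox13 and 4930402F06Rik, for Cxcr4 Slc35e4, Acvrl1 and Txk, and for Cxcr5 Plbd1, Gm6268 and Il17c, with r between 0.935 and 0.967. Each is among the highest of all genes tested, so a high r is a description and carries no p.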

How the data were processed

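RNA of whole colon from 8 mice was hybridised to 1 Affymetrix array each. The deposited table holds log2 values made by the authors with oligo and RMA, per the submitters' processing notes, which give no version; RMA makes the distributions of the arrays alike, so a shift of all genes would not show. For the array, the genome build is not given in the sources used. Of 22203 probe sets, 19572 had 1 gene symbol, 0 several, and 2631 are unnamed here. The probe set with the highest mean was kept per gene (67 set aside), leaving 19505. Groups and replicate numbers came from the sample titles. The limma p-values set a group difference against the spread between mice, which limma estimates in part from all genes. The number of arrays limits the precision, and signal over background cannot be read. The labels do not say whether replicate numbers mark pairs, and the numbers were not used as pairs in the main fit.

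Differences were tested with limma 3.58.1 (lmFit, eBayes; R 4.3.3), two-sided, without a minimum fold, and the fit was tested on simulated data. Correlations over mice used exact permutation over 40320 pairings (Python 3.11.15, scipy 1.17.1); figures used matplotlib 3.10.9. The receptors and gene lists were chosen with earlier results of these data known, and the promoter motifs after the sequences were seen. Named were the receptors, 1 principal ligand each, Ccr2, Ackr3, Dock2, Rac2, Pik3cg, Rgs1, the first 2 measured genes of every other list, list members past the threshold, and the 3 genes most like each receptor. Alternatives were an intensity trend with robust prior, low-value filters, other scaling, averaged probe sets, array weights, a replicate block, a threshold of 0.1, a log2 minimum of 1, each array left out, and hBD-2 1 and hBD-2 3 left out.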

Additional observations from a re-analysis of the deposited data

Results flagged for a closer look

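Values of 8 of 122 combinations of a named gene and a group had 1 mouse far from the other 3 of its group, by the gap to the nearest mouse against the whole range of the group; chance gives about 1 in 20, or 6.1. Among the receptors and ligands, Cxcr2 was 5.97 in hBD-2 2 against 5.74 to 5.77 in the other hBD-2 mice. Ccl3 was 8.90 in PBS 3 against 8.56 to 8.62, and Ccl11 was 9.90 in PBS 3 against 10.4 to 10.5. Among cell type markers, the neutrophil gene Retnlg was 5.52 in PBS 3 against 7.00 to 7.15, Cd3e was 7.98 in PBS 1 against 8.36 to 8.43, and the plasma cell gene Jchain was 6.93 in PBS 4 against 9.12 to 9.54. The mast cell gene Cpa3 was 4.01 in PBS 1 against 4.41 to 4.46 and 4.19 in hBD-2 2 against 4.42 to 4.45. PBS 3 carried 3 of the 8 values.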

How the results depend on the processing

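Ccr1, Ccr3, Cxcr3, Cxcr4 and Cxcr6 kept their direction under every alternative that gave a value. The number of receptors past the threshold was 0 except with the intensity trend and robust prior (1, Ccr1 at -0.66) and at a threshold of 0.1 (1, Ccr1 at -0.66). The number of all genes past the threshold was 8; it was 91 with the trend, 81 at a threshold of 0.1, 68 with array weights, 47 and 16 without the lowest 50% and 25% of genes, 4 with quantile normalization repeated, and 0 with a log2 minimum of 1 or without hBD-2 1 and hBD-2 3; leaving out 1 array gave 0 to 11. The cause was not tested. The median difference of the receptors, 0.0094, was 0.0953 with array weights, -0.0806 without hBD-2 1 and hBD-2 3, and -0.0426 to 0.10 with 1 array left out.

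Among the signs that turned, Ccr7 was 0.00385 with each array centred on its median and 0.0113 with array weights, where Cxcl9 was 0.0296, Ackr3 -0.0442 and Ifng 0.0216. With quantile normalization repeated, Cxcr2 was -0.0461, Ccr9 -0.0477 and Cpa3 -0.0123. Without hBD-2 1 and hBD-2 3, Cxcr5 was -0.0467, Cx3cr1 -0.17, Ccr9 -0.0919, Cpa3 -0.00960 and Hoxb13 -0.79. With 1 array left out the ranges were -0.0718 to 0.0268 for Ccr7, -0.11 to 0.26 for Cxcr2, -0.0239 to 0.32 for Cx3cr1, -0.15 to 0.0199 for Ccl19, -0.16 to 0.10 for Cxcl9, -0.0612 to 0.11 for Ackr3, -0.295 to 0.0480 for Cxcl10, -0.18 to 0.0778 for Ifng, -0.0615 to 0.11 for Cpa3, -0.15 to 0.0298 for Hoxa13, -0.0772 to 0.0763 for Ccr9 and -0.14 to 0.0020 for Ccr1l1. The filter at 25% dropped the receptors Ccr3 and Cxcr5 and the filter at 50% dropped all 9 receptors, so neither tests those. Mice of the same replicate number deviated together with r of -0.15, 0.14, 0.24 and 0.05, so the numbers were not taken as pairs; with the replicate block 0 genes passed, and no receptor did.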
